A study of Mus musculus with 6 samples.

Results

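A set of 5 genes of thyroid hormone action was followed through the making of beige fat cells in culture: Thra and Thrb, which encode the 2 thyroid hormone receptors, Dio2, which encodes type 2 deiodinase, Hr, which encodes the nuclear corepressor hairless, and Slc16a10, which encodes the transporter MCT10. They were taken from the count table by symbol, and each of the 5 symbols names 1 of its 45808 gene lines. All 5 passed the filter on low counts. The cells were the stromal-vascular fraction of inguinal white fat, the mixed cells left when fat cells are removed, taken from male mice 8 weeks old. RNA-seq was done on 6 libraries, 2 for each of 3 days, all labelled WT. The study asked about beige fat cells, which arise within white fat and can burn fuel as heat.

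Day 0 cells were confluent in medium with 10% serum and had received none of the differentiation agents. Day 2 cells had spent 2 days in induction medium with 0.5 mM IBMX, which blocks the breakdown of cyclic AMP, 5 µM of the glucocorticoid dexamethasone, 125 µM indomethacin, insulin at 850 nM, T3 at 1 nM and the PPAR gamma agonist rosiglitazone at 1 µM. Day 6 cells had then been kept in maintenance medium with insulin, T3 and rosiglitazone at those doses, without IBMX, dexamethasone or indomethacin. T3, the active thyroid hormone, was therefore added at both later days and not at day 0. Day, T3 and the other agents move together in this design, so their parts cannot be told apart. The replicate labels are 76 and 77, and the sources used here do not say whether these stand for separate animals or cultures. The p-values reflect only how far these libraries spread, which may be technical.

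Thyroid hormone reaches cells mostly as T4, a prohormone. Transporters, MCT10 among them, carry thyroid hormone into cells. Type 2 deiodinase removes an outer-ring iodine and turns T4 into T3, while type 3 deiodinase inactivates both. T3 binds the receptors, which sit on DNA as partners of RXR, and the bound receptor trades corepressors for coactivators. In brown fat, Dio2 is known as a gene that cyclic AMP raises under adrenergic drive, and the T3 it makes supports heat production. Hr is a known target of T3 in brain, and its protein binds nuclear receptors to repress their genes.

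At day 2 against day 0, Dio2 and Slc16a10 had the largest changes of the set. The stretches in front of them are shown for that reason, and because the induction medium acts on cyclic AMP. Both are the 250 bases before the start site in RefSeq (GRCm38.p6), which had such a stretch for 3 of the 5 genes, and both are written in the direction of the gene. Capitals mark the letters TGACGTCA, the consensus cyclic AMP response element, and TATAAA, the TATA box.
Dio2, chr12:90739039-90739288, minus strand: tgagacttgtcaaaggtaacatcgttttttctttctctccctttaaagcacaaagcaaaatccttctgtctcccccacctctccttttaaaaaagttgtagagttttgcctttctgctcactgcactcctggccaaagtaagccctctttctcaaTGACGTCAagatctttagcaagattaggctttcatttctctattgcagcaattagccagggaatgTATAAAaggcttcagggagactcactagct
Slc16a10, chr10:40142255-40142504, minus strand: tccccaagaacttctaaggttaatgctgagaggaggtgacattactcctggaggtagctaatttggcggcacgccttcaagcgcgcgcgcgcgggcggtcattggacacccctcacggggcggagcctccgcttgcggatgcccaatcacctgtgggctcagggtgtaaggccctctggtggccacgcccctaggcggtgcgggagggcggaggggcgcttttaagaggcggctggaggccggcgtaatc
In front of Dio2, TGACGTCA lies 95 to 88 bases before the start and TATAAA 30 to 25 bases before it. The stretch in front of Slc16a10 holds neither, and its GC content is 64.4% against 41.6% for Dio2. Over 32851 RefSeq promoter windows of 300 bases, read on both strands, 1.79% held TGACGTCA and 13.6% held TATAAA. The nuclear receptor half-site AGGTCA was in 16.3% of windows and in neither of these 2 stretches. Thrb, the third gene with an entry, has 2 start sites in RefSeq, whose stretches are not printed because they lie within the annotated gene. AGGTCA lies 184 to 179 bases before the first, with TGACG 56 to 52 bases before it, and TATAAA lies 167 to 162 bases before the other. Its direct repeat with 4 bases between the copies, the classic layout for thyroid hormone receptors, was in 0.0152% of windows and in none of these 4 stretches. The TGACGTCA match also contains the shorter TGACG on both strands, which 20.8% of windows hold. These are matches of letters and were not tested as binding sites.

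The genes lie as follows in GRCm38 with the GENCODE M21 annotation. Thra is on chromosome 11 from 98740638 to 98769006 (plus strand), Thrb on chromosome 14 from 17660261 to 18038090 (plus) and Hr on chromosome 14 from 70552212 to 70573548 (plus). Dio2 is on chromosome 12 from 90724552 to 90738438 (minus), so that the RefSeq start used above lies 600 bases upstream of the annotated gene. Slc16a10 is on chromosome 10 from 40033532 to 40142258 (minus). Reads were counted over genes, so the alpha 1 and alpha 2 forms of Thra, of which only the first binds T3, and the forms of Thrb are not separated. The 3' end of Thra overlaps Nr1d1, a circadian repressor gene on the opposite strand, over 5.70% of Thra's exonic length. Dio2 shares 1.72% of its exonic length with Gm26512, which had no counts in any library.

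Counts in genes ranged from 22522221 to 29458374 per library. Libraries sharing a day were further apart than counting alone would give, with a chi-square per degree of freedom of 7.12 for the day 0 pair, 7.85 for day 2 and 27.4 for day 6, the least even pair. The labelled course was checked by markers. Summed over 7 adipocyte genes, levels ranged from 75.8 to 94.9 CPM (reads of a gene scaled to a common library size) at day 0, from 3731 to 4007 at day 2 and from 26259 to 31953 at day 6. Summed over 7 progenitor genes, they ranged from 2492 to 2503, from 1288 to 1493 and from 847 to 1274 CPM. Of the 6 macrophage genes none rose by day 2 and 4 rose by day 6, beside 33.6% and 35.9% of all genes tested. The sum of the 6 was 49.4 to 117 CPM at day 6 against 37.3 to 43.4 at day 0. The 6 endothelial genes summed to 29.7 to 33.5, 6.29 to 6.33 and 11.97 to 15.8 CPM. The 5 mural genes summed to 112 to 125, 30.9 to 33.0 and 114 to 115 CPM. They did not move together. At day 6 against day 0, 2 were higher and 3 lower, with a median log2 change of -1.73. Over all genes tested, 35.9% were higher and 35.1% lower there. Of the epithelial genes Epcam and Krt14 had no counts. The part of these other cells in the results below was not tested. In bulk RNA, more cells of a type and more RNA per cell cannot be told apart.

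All 5 genes changed between day 0 and day 2. Thra and Hr fell, and Thrb, Dio2 and Slc16a10 rose. A gene is said to have risen or fallen where edgeR's quasi-likelihood test gave a Benjamini-Hochberg adjusted p under 0.05 over the 14459 genes tested. The background was high: 67.1% of all genes passed this test at day 2 against day 0, 33.6% upwards and 33.6% downwards. The median log2 change over all genes was 0.00. At day 6 against day 0 all 5 passed, 4 higher and 1 lower, where 70.9% of all genes passed, 35.9% higher and 35.1% lower. At day 6 against day 2, 4 of the 5 passed, 3 higher and 1 lower, where 65.7% of all genes passed, 38.2% higher and 27.5% lower. All 5 passed the joint test for a difference between any days, as did 84.8% of all genes. A count of 4 or 5 of 5 is therefore near what the table as a whole gave, and the directions and sizes below carry the description. Days said below not to overlap describe these libraries only. The share of all genes tested with such days was not computed.

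**Figure D1:**
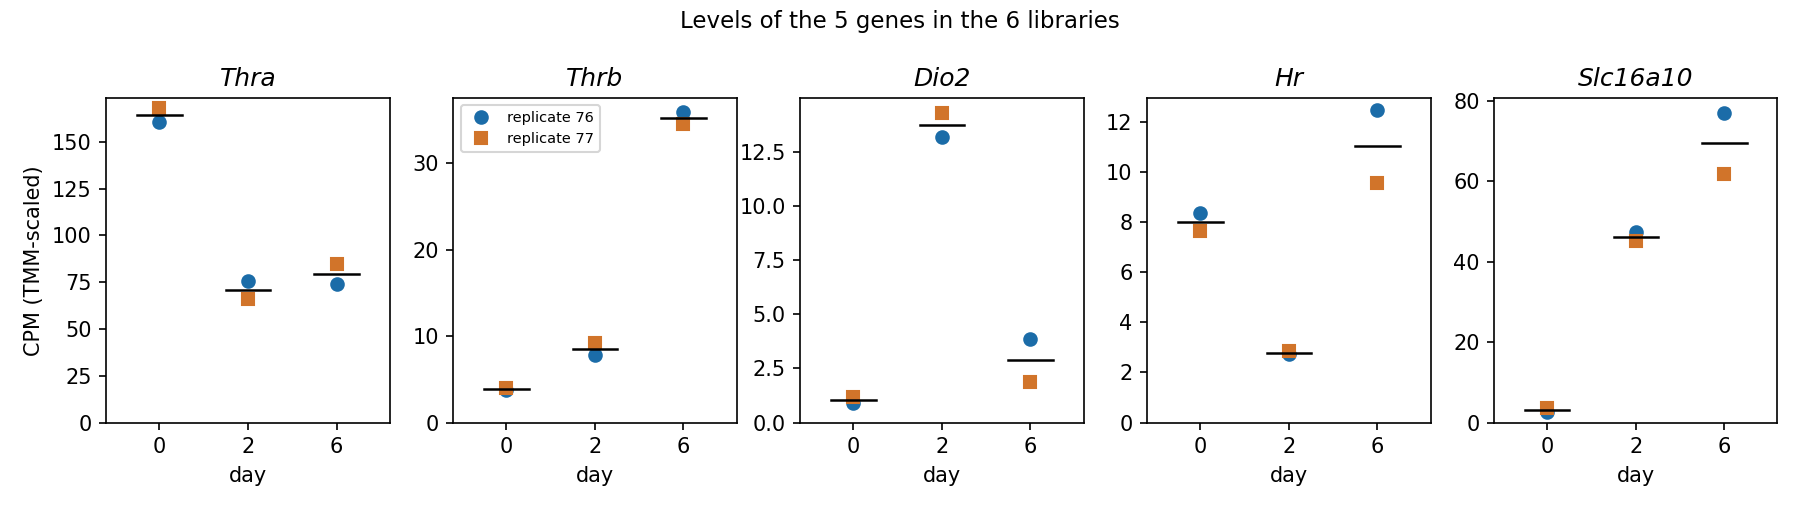
CPM (vertical axis, linear from 0, a scale for each gene) of the 5 genes by day (horizontal axis), with circles for replicate 76, squares for replicate 77 and a bar at the mean of each day. Thra drops from over 160 CPM after day 0, Thrb is highest at day 6, Dio2 peaks at day 2, Hr is lowest at day 2, and Slc16a10 is high at both later days.

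Thra encodes thyroid hormone receptor alpha, the form most tissues outside liver and pituitary rely on. It stood at 161 and 168 CPM in the day 0 libraries, at 75.5 and 66.0 at day 2 and at 74.2 and 84.9 at day 6. Both day 0 libraries lay above all 4 later ones, and days 2 and 6 overlapped. From a mean of 164 ± 5.44 CPM (SD, n = 2) Thra fell 2.32-fold to 70.8 ± 6.67 at day 2, by 1.22 on the log2 scale (SE 0.09, edgeR adjusted p = 1.14e-05). At day 6 it was 79.6 ± 7.59 CPM, 2.07-fold below day 0 (log2 change -1.05, SE 0.09, edgeR adjusted p = 1.81e-05). Day 6 and day 2 differed by 0.17 on the log2 scale (SE 0.09, edgeR adjusted p = 0.147). That value became -0.19 when libraries were scaled by their totals alone (adjusted p = 0.159), and 0.26 without day 6 replicate 76 (adjusted p = 0.0292), so no direction is given for it. Nr1d1, whose exons overlap Thra's, was at 31.3 CPM at day 0, 27.2 at day 2 and 32.6 at day 6. Its log2 change was -0.20 at day 2 against day 0 (edgeR adjusted p = 0.0536) and 0.06 at day 6 against day 0 (0.511). From day 2 to day 6 Nr1d1 rose, a call lost in 4 of 11 alternatives, and library totals alone turned its sign (-0.10). Against day 0 the changes of Nr1d1 were smaller than those of Thra. The part of the overlap in the Thra values was not tested, and the sources used here do not give the strand setting of the counting.

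Thrb encodes thyroid hormone receptor beta, known as the main form in liver. It was at 3.81 and 4.00 CPM at day 0, at 7.79 and 9.17 at day 2 and at 35.96 and 34.6 at day 6. The 3 days did not overlap, and each later day lay above the one before. From 3.90 ± 0.132 CPM Thrb rose 2.17-fold to 8.48 ± 0.981 at day 2 (log2 change 1.12, SE 0.13, edgeR adjusted p = 9.35e-05). It rose a further 4.16-fold to 35.3 ± 0.956 CPM at day 6 (log2 change 2.06, SE 0.11, edgeR adjusted p = 1.39e-06). Over the whole course this came to 9.05-fold (log2 change 3.18, SE 0.12, edgeR adjusted p = 1.47e-07). The days up to day 2 and those after it cover unequal spans, so the 2 steps are not rates.

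The balance of the 2 receptor transcripts shifted towards Thrb at each day. Reads of Thra outnumbered those of Thrb 42.2 and 42.1 to 1 in the day 0 libraries, 9.69 and 7.20 to 1 at day 2, and 2.06 and 2.45 to 1 at day 6. Such a ratio is taken within 1 library and needs no scaling between libraries, and it was not tested beyond the tests of each gene. Per exon length, where levels of different genes can be set side by side, Thra was 67.6 times Thrb at day 0, 13.6 times at day 2 and 3.62 times at day 6. Thrb made up 1.46% ± 0.00121 of the 2 transcripts per length at day 0, 7.004% ± 1.36 at day 2 and 21.7% ± 2.08 at day 6. Thra remained the more abundant of the 2 in every library. Their sum went from 36.2 ± 1.197 CPM per kilobase (kb) of exon on day 0 to 16.5 ± 1.31 on day 2 and 22.01 ± 1.51 on day 6, so that total receptor RNA was below day 0 in all 4 later libraries.

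**Figure D2:**
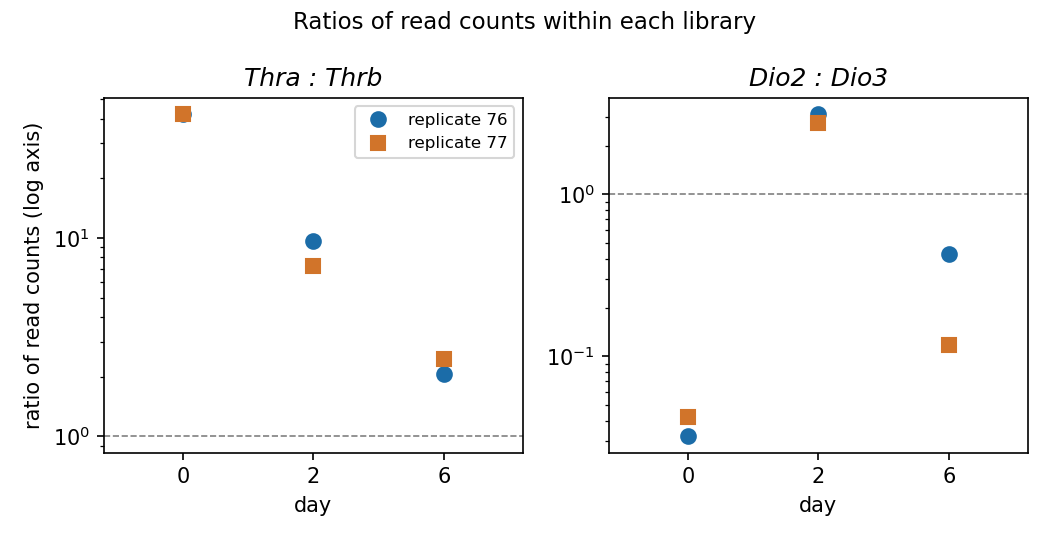
Ratio of read counts within each library (vertical log axis) by day for Thra to Thrb and Dio2 to Dio3, with circles for replicate 76, squares for replicate 77 and a dashed line at equal counts. Thra to Thrb falls from 42.1 on average to 2.26, while Dio2 to Dio3 is above the line at day 2 and below it at days 0 and 6. The ratios plotted are not corrected for exon length. Per exon length, Dio2 to Dio3 at day 2 is 1.09 and 0.958.

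RXR proteins are the dimer partners that thyroid hormone receptors share with PPAR gamma and the vitamin D receptor. Of the 3 genes, Rxrg stood out in size: from 0.141 CPM on day 0 it went to 1.29 on day 2 and 15.1 on day 6 (log2 change 6.64 over the course, SE 0.31, edgeR adjusted p = 4.97e-07). Its day 0 libraries held few reads, 0.199 and 0.0824 CPM, and without replicate 76 of day 0 the log2 change at day 2 was 3.89 in place of 3.10 and that at day 6 was 7.43. Rxra went from 159 to 184 and 179 CPM (log2 changes 0.21 and 0.17, edgeR adjusted p = 0.0253 and 0.0499). The call at day 2 was lost without day 0 replicate 76 (0.18) or either day 2 library (0.19 and 0.25). That at day 6 was lost in 9 of 11 alternatives, without each of 5 libraries (0.14 to 0.21) among them, and library totals alone turned its sign (-0.074). Rxrb, at 81.8, 80.3 and 76.4 CPM, passed no comparison, with log2 differences of -0.03, -0.10 and -0.07.

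Corepressors and coactivators are the complexes that the receptors hold without and with hormone. The 6 corepressor genes were split, with 4 higher and 2 lower at day 2 against day 0 and 3 higher and 2 lower at day 6. Over all genes tested, 33.6% were higher and 33.6% lower at day 2, and 35.9% and 35.1% at day 6. The median log2 change of the 6 corepressor genes at day 6 was 0.22, beside -0.01 over all genes tested. Ncor1, which encodes the corepressor NCoR, rose by 0.69 on the log2 scale by day 6 (SE 0.07, edgeR adjusted p = 3.46e-05). Hdac3, the deacetylase of the complex, rose by 0.50 and Gps2 fell by 0.33 on the log2 scale. The Gps2 call was lost without day 0 replicate 77 (-0.25) or day 6 replicate 76 (-0.29). At day 2 Gps2 fell by 0.28, a call lost in 7 of 11 alternatives, among them DESeq2 (-0.24) and leaving out day 0 replicate 76 (-0.34), day 0 replicate 77 (-0.077) or day 2 replicate 76 (-0.18). The rise of Ncor1 at day 2 (0.25) was lost without day 0 replicate 76 (0.26) or day 2 replicate 77 (0.23), and that of Tbl1xr1 at day 6 with library totals alone (0.065). Of 6 coactivator genes 2 were higher and 4 lower at day 2, and 2 were higher and 3 lower at day 6, beside the same shares of all genes. Of the 4 lower at day 2, Crebbp lost its call in 7 of 11 alternatives, Ep300 in 5 and Ncoa2 in 4, all of them with DESeq2 and without day 0 replicate 77 (-0.061, -0.11 and -0.055) or day 2 replicate 76 (-0.21, -0.19 and -0.21). Crebbp and Ep300 also lost it without day 0 replicate 76 (-0.34 and -0.23), and Crebbp without day 2 replicate 77 (-0.31). At day 6 Ep300 lost its call in 7 of 11, among them without every library but day 6 replicate 76 (-0.12 to -0.20). By day 6 Ncoa1 (SRC-1) rose by 0.81 and Med1, the Mediator subunit that contacts the receptors, by 0.34, while Ncoa3 (SRC-3) fell by 1.24 and Crebbp, a histone acetyltransferase, by 0.38. The rise of Med1 was lost with library totals alone (0.089, adjusted p = 0.285) and the Crebbp call without day 0 replicate 77 (-0.30).

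Dio2 was the gene of the 5 with a peak at day 2. It was at 0.894 and 1.19 CPM at day 0 (27 and 29 reads), at 13.2 and 14.3 at day 2 (388 and 398 reads) and at 3.84 and 1.90 at day 6 (86 and 38 reads). No 2 days overlapped, and the day 6 libraries differed by more from each other than the lower of them did from day 0. The rise to day 2 had a log2 change of 3.73 (SE 0.30, edgeR adjusted p = 1.44e-05). From day 2 to day 6 Dio2 fell 4.74-fold, from 13.8 ± 0.795 to 2.87 ± 1.38 CPM (log2 change -2.24, SE 0.27, edgeR adjusted p = 0.000116). It was still 2.80-fold above day 0 at day 6 (log2 change 1.49, SE 0.35, edgeR adjusted p = 0.00514). Replicate 76 weighed on both day 6 values: without it the log2 change was 0.88 against day 0 and -2.86 against day 2, and without replicate 77 it was 1.90 and -1.84. All 4 values stayed past the threshold. At day 6 replicate 76 also held the higher sums of the macrophage genes (117 against 49.4 CPM) and the adipocyte genes (31953 against 26259 CPM), and the lower sum of the progenitor genes (847 against 1274 CPM). The part of these in the Dio2 values was not tested.

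Dio3 encodes type 3 deiodinase, which inactivates thyroid hormone, and it had the reverse course. It was at 27.98 and 28.4 CPM at day 0, at 4.22 and 5.22 at day 2 and at 8.94 and 16.1 at day 6. The 3 days did not overlap, and at day 6 the library with less Dio2 held more Dio3. Dio3 fell 5.98-fold by day 2 (log2 change -2.58, SE 0.24, edgeR adjusted p = 3.38e-05). It rose again by 1.40 from day 2 to day 6 (SE 0.26, edgeR adjusted p = 0.00148), and ended below day 0 (log2 change -1.18, SE 0.23, edgeR adjusted p = 0.00163). Without day 6 replicate 77 the rise after day 2 was 0.92, and without replicate 76 it was 1.77, both past the threshold. Dio1, the type 1 deiodinase of liver and kidney, had no counts in any library, which allows up to 3 counts in each, or 0.0994 to 0.150 CPM.

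Reads of Dio2 relative to those of Dio3 reversed at day 2. The ratio was 0.0320 and 0.0421 in the day 0 libraries, 3.13 and 2.74 in those of day 2, and 0.430 and 0.118 in those of day 6. Dio3 thus had more reads than Dio2 at days 0 and 6, and fewer at day 2. Per exon length the day 2 ratios were 1.09 and 0.958, so that the 2 transcripts stood near the same level there, since Dio2 has the longer exons. RNA levels do not give the activity of either enzyme.

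Type 2 deiodinase is a selenoprotein that is tagged with ubiquitin and destroyed when its substrate is plentiful, so its protein can change without its RNA. Of the 5 genes of that turnover, 3 rose and 1 fell in each of the 3 comparisons. Over all genes tested, 33.6% to 38.2% rose and 27.5% to 35.1% fell in them. The fall at day 2 against day 0 was that of Wsb1 (log2 change -0.33), a call lost in 7 of 11 alternatives, among them DESeq2 (-0.28) and leaving out either day 0 library (-0.25 in both) or either day 2 library (-0.31 and -0.32). Library totals alone ended all 3 rises from day 2 to day 6, with -0.056 for Ube2g2, 0.021 for Usp20 and 0.14 for Usp33. The first 2 were also lost without day 0 replicate 77 (0.17 and 0.24), and Usp20 without day 2 replicate 76 (0.37). Wsb1, which recognises the enzyme in an E3 ligase, fell by 1.77 on the log2 scale from day 0 to day 6 (SE 0.14, edgeR adjusted p = 7.41e-06). The ubiquitin-conjugating Ube2g2 rose by 0.98, and the deubiquitinases Usp20 and Usp33, which rescue the enzyme, rose by 1.26 and 1.31. Usp33 shares 24.4% of its exonic length with other genes. All 5 genes for building selenocysteine into proteins rose by day 2, with a median log2 change of 0.71 beside 0.00 over all genes, and 4 of them were higher than day 0 at day 6. Over all genes tested, 33.6% rose by day 2 and 35.9% were higher than day 0 at day 6. The rise of Pstk at day 2 (0.45) was lost without either day 2 library (0.45 and 0.47, adjusted p = 0.0715 and 0.0627), which leaves 4 of 5. Sephs2, which makes the selenium donor, had the largest change at day 6 (log2 change 1.40, SE 0.10, edgeR adjusted p = 5.88e-06), followed by Sepsecs (1.24), Secisbp2 (0.55) and Pstk (0.48). Sephs2 and Pstk share 36.4% and 58.8% of their exonic length with other genes, so their counts are less certain, and the Pstk call at day 6 was lost with library totals alone (0.23) and without day 0 replicate 77 (0.40) or day 6 replicate 76 (0.28).

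Genes of the receptors and kinases of the cyclic AMP pathway in fat followed no single course. Of 7 tested, 3 rose and 1 fell by day 2, where 67.1% of all genes passed the test, and 4 rose and 2 fell by day 6, where 70.9% did. Adrb3, the beta 3 adrenergic receptor of fat cells, went from 4.58 CPM to 13.3 and then 164 CPM (log2 change at day 6 of 5.18, SE 0.16, edgeR adjusted p = 5.84e-08). Adrb3 was thus highest at day 6, and other genes overlap 24.9% of its exons. A link between Adrb3 and Dio2 was not tested. Prkar2b, a regulatory subunit of protein kinase A, rose by 4.86 and the catalytic subunit Prkaca by 1.73. Adcy3, an adenylyl cyclase that makes cyclic AMP, fell by 1.42 (SE 0.08, edgeR adjusted p = 1.82e-06) and Creb1, the factor that binds cyclic AMP response elements, by 0.38 (SE 0.07, edgeR adjusted p = 0.00179). Other genes overlap 22.1% of the exons of Adcy3. IBMX was present up to day 2 and absent after it, and Dio2 followed the same order. The parts of IBMX and of the other agents taken away with it cannot be told apart.

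Slc16a10 had the largest log2 change of the 5 genes in both comparisons with day 0. MCT10, its product, carries thyroid hormone and aromatic amino acids across the cell membrane. It was at 2.68 and 3.67 CPM at day 0, at 47.4 and 45.1 at day 2 and at 76.98 and 61.9 at day 6. The days did not overlap. Slc16a10 rose 14.7-fold by day 2, from 3.17 ± 0.696 to 46.2 ± 1.67 CPM (log2 change 3.88, SE 0.16, edgeR adjusted p = 7.63e-07). By absolute log2 change this placed it at rank 395 of the 14459 genes tested, with Dio2 at rank 435. At day 6 it was at 69.4 ± 10.7 CPM, 22.1-fold above day 0 (log2 change 4.47, SE 0.16, edgeR adjusted p = 1.15e-07). The step from day 2 to day 6 was 0.59 on the log2 scale (SE 0.12, edgeR adjusted p = 0.00303). With libraries scaled by their totals alone that step was 0.23 (adjusted p = 0.122) and no longer passed, while both changes from day 0 did.

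Other carriers ended lower than at day 0, a comparison in which 35.1% of all genes were lower. Slc7a5 and Slc7a8, the light chains LAT1 and LAT2 of amino acid carriers that also take thyroid hormone, ended lower than day 0, by 2.55 and 1.30 on the log2 scale. Slc7a5 went from 237 to 115 and 40.5 CPM. Slc7a8 went from 28.3 to 43.3 and 11.5 CPM, and its rise at day 2 (log2 change 0.61) was lost without day 2 replicate 77 (0.49). Their heavy chain Slc3a2 was at 203 CPM on days 0 and 2 and fell by 0.74 on the log2 scale to 122 CPM at day 6. Slco1c1, Slco1a4, Slco4a1, Slc10a1 and Slc17a4 were too low to test, as were Crym, Ttr and Serpina7, which bind thyroid hormone in cytosol or serum.

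**Figure D3:**
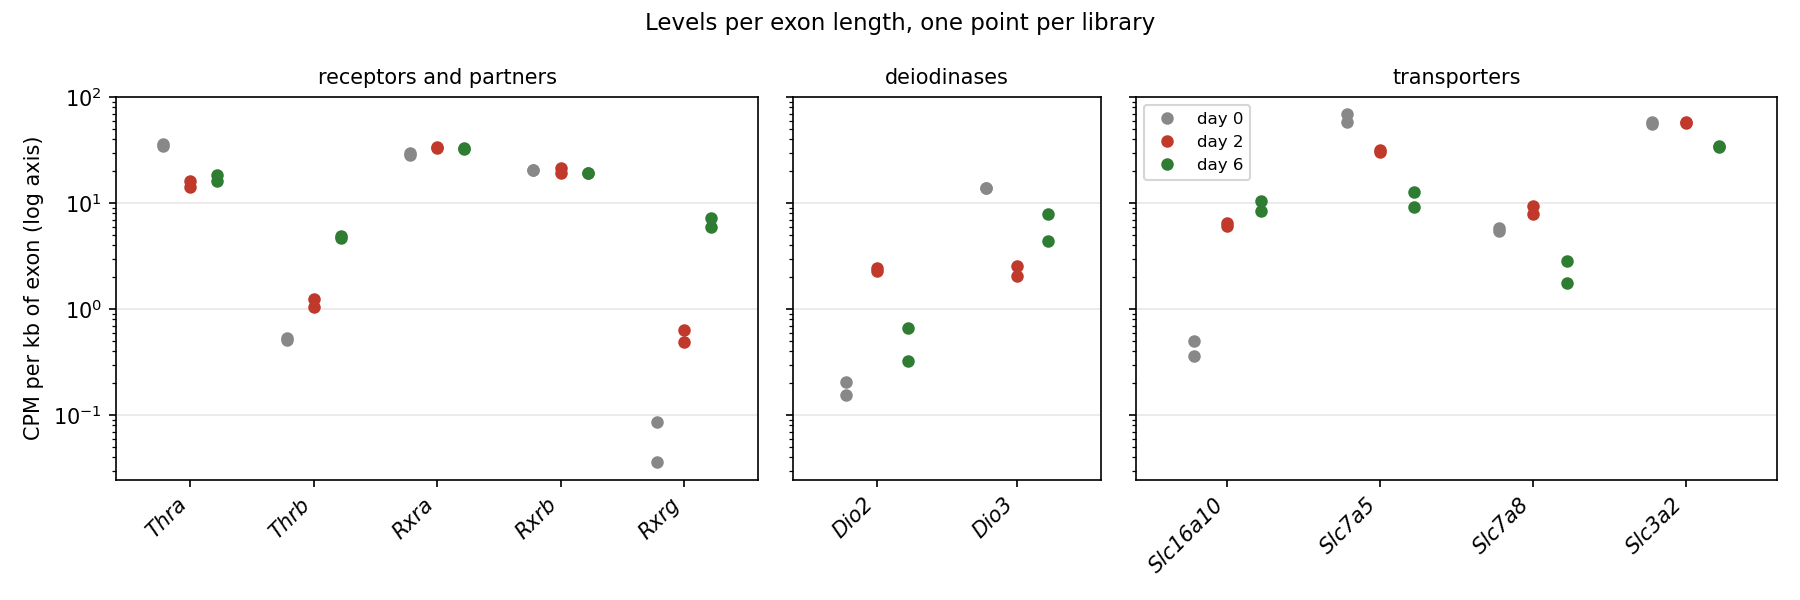
CPM per kb of exon (vertical log axis) of the receptors and their RXR partners, of Dio2 and Dio3, and of the transporters, with 1 point per library in grey for day 0, red for day 2 and green for day 6. Thra lies above Thrb on all days, Dio2 meets Dio3 at day 2, and Slc16a10 climbs from 0.432 CPM per kb on average to 9.44.

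Hr dipped at day 2 and came back by day 6. It was at 8.38 and 7.66 CPM at day 0, at 2.72 and 2.84 at day 2 and at 12.5 and 9.58 at day 6. The days did not overlap, with day 2 far below both others and the day 6 libraries apart from each other. Hr fell 2.89-fold by day 2, from 8.02 ± 0.507 to 2.78 ± 0.0861 CPM (log2 change -1.53, SE 0.18, edgeR adjusted p = 0.000105). It then rose 3.97-fold to 11.02 ± 2.04 CPM at day 6 (log2 change 1.99, SE 0.18, edgeR adjusted p = 2.16e-05). T3 was in the medium at both later days and not at day 0. The parts of T3, of the other agents and of day in the course of Hr cannot be told apart. The difference between day 6 and day 0 was small, 0.46 on the log2 scale (SE 0.16, edgeR adjusted p = 0.0301). That call was lost with library totals alone (0.21, adjusted p = 0.239), with DESeq2 (0.43, adjusted p = 0.0794), and without day 0 replicate 76 (0.53), day 0 replicate 77 (0.41) or day 6 replicate 76 (0.26).

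The hairless protein is known to bind the vitamin D receptor and the ROR receptors. Vdr, at 53.6 CPM at day 0 and 68.9 at day 2, fell to 10.5 CPM at day 6 (log2 change from day 0 -2.35, SE 0.13, edgeR adjusted p = 1.27e-06). Its rise at day 2 of 0.36 was lost without day 2 replicate 77 (0.22). Rora was at 39.6 and 41.7 CPM on days 0 and 2 and rose to 85.7 at day 6 (log2 change from day 0 1.12, SE 0.11, edgeR adjusted p = 3.05e-05). Rorb peaked at day 2, at 8.55 CPM against 4.11 at day 0 and 3.38 at day 6.

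Set beside each other per exon length, the 5 genes changed order between days. At day 0 Thra led with 35.6 ± 1.18 CPM per kb, followed by Hr (1.16 ± 0.0733), Thrb (0.527 ± 0.0179), Slc16a10 (0.432 ± 0.0945) and Dio2 (0.180 ± 0.0365). Thrb and Slc16a10 differed there by about the SD of Slc16a10, and the others were apart by more than their spread. At day 2 the order was Thra (15.3 ± 1.45), Slc16a10 (6.29 ± 0.226), Dio2 (2.37 ± 0.137), Thrb (1.15 ± 0.132) and Hr (0.402 ± 0.0124). At day 6 it was Thra (17.2 ± 1.64), Slc16a10 (9.44 ± 1.45), Thrb (4.77 ± 0.129), Hr (1.59 ± 0.295) and Dio2 (0.493 ± 0.237). On both later days each library of a gene lay above both libraries of the next. Among 13797 tested genes with a length, Thra was above 91.7% at day 0 and above 80.0% at day 6, and Slc16a10 went from above 15.7% to above 67.7%. Dio2 was above 39.5% at its peak, so that its level at day 2 was below that of most genes tested.

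Known targets of T3 from other tissues were followed as a list, of which Hr itself is left out. Of 13 tested, 6 rose and 2 fell by day 2, so that 8 of 13 passed where 67.1% of all genes did, and 8 rose and 3 fell by day 6, where 70.9% of all genes passed. The 3 that fell by day 6 were Bcl3 (-2.05), Cpt1a, the carnitine acyltransferase of fatty acid burning (-0.33), and Atp2a2, a calcium pump (-0.22). The Atp2a2 call was lost without each library but day 6 replicate 77 (-0.16 to -0.23), and the Cpt1a call without day 0 replicate 76 (-0.27) or day 6 replicate 76 (-0.21). The median log2 change at day 6 was 2.99, beside -0.01 over all genes tested. Among the largest changes at day 6 were those of genes of fat synthesis, a process that differentiation into fat cells also raises. Thrsp (Spot 14) rose by 12.58 on the log2 scale (SE 0.41, edgeR adjusted p = 6.51e-08), Acacb by 6.02 and Fasn by 5.42. Ucp3, a mitochondrial carrier, had no reads at day 0 and was at least 37.4-fold higher than the floor of 3 counts per library at day 6. That is a lower bound, so Ucp3 is not ranked against these genes. Klf9, a transcription factor known as a direct T3 target in many cells, rose by 1.04 by day 2 and by 1.35 by day 6 (SE 0.10 in both, edgeR adjusted p = 2.91e-05 and 5.13e-06). At day 2 Klf9 was higher and Hr lower than at day 0. T3 and dexamethasone had both been added by then, and the parts of the agents cannot be told apart. Ucp1, the uncoupling protein of thermogenic fat, had no reads in either day 0 library, 13 and 10 on day 2 and 1 and 0 on day 6. On day 2 it was at least 3.596-fold higher than the day 0 floor. Both Dio2 and Ucp1 were thus highest at day 2, on counts that for Ucp1 are very low. Ucp1 fell from day 2 to day 6, a call lost with DESeq2 (-4.17) and without day 6 replicate 77 (-3.04).

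Over the whole pathway, the 11 lists without the 5 genes held 64 genes, of which 54 were tested. Of these, 28 rose and 13 fell by day 2, 28 rose and 17 fell by day 6, and 24 rose and 16 fell from day 2 to day 6. Over all genes tested, 33.6% rose and 33.6% fell by day 2, and 35.9% and 35.1% by day 6. From day 2 to day 6, 38.2% rose and 27.5% fell. The median log2 changes of the 54 were 0.33, 0.41 and 0.04, beside 0.00, -0.01 and 0.12 over all genes tested. Both comparisons with day 0 use the same 2 day 0 libraries, and both comparisons with day 6 the same 2 day 6 libraries, so they are not independent of each other.

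**Figure D4:**
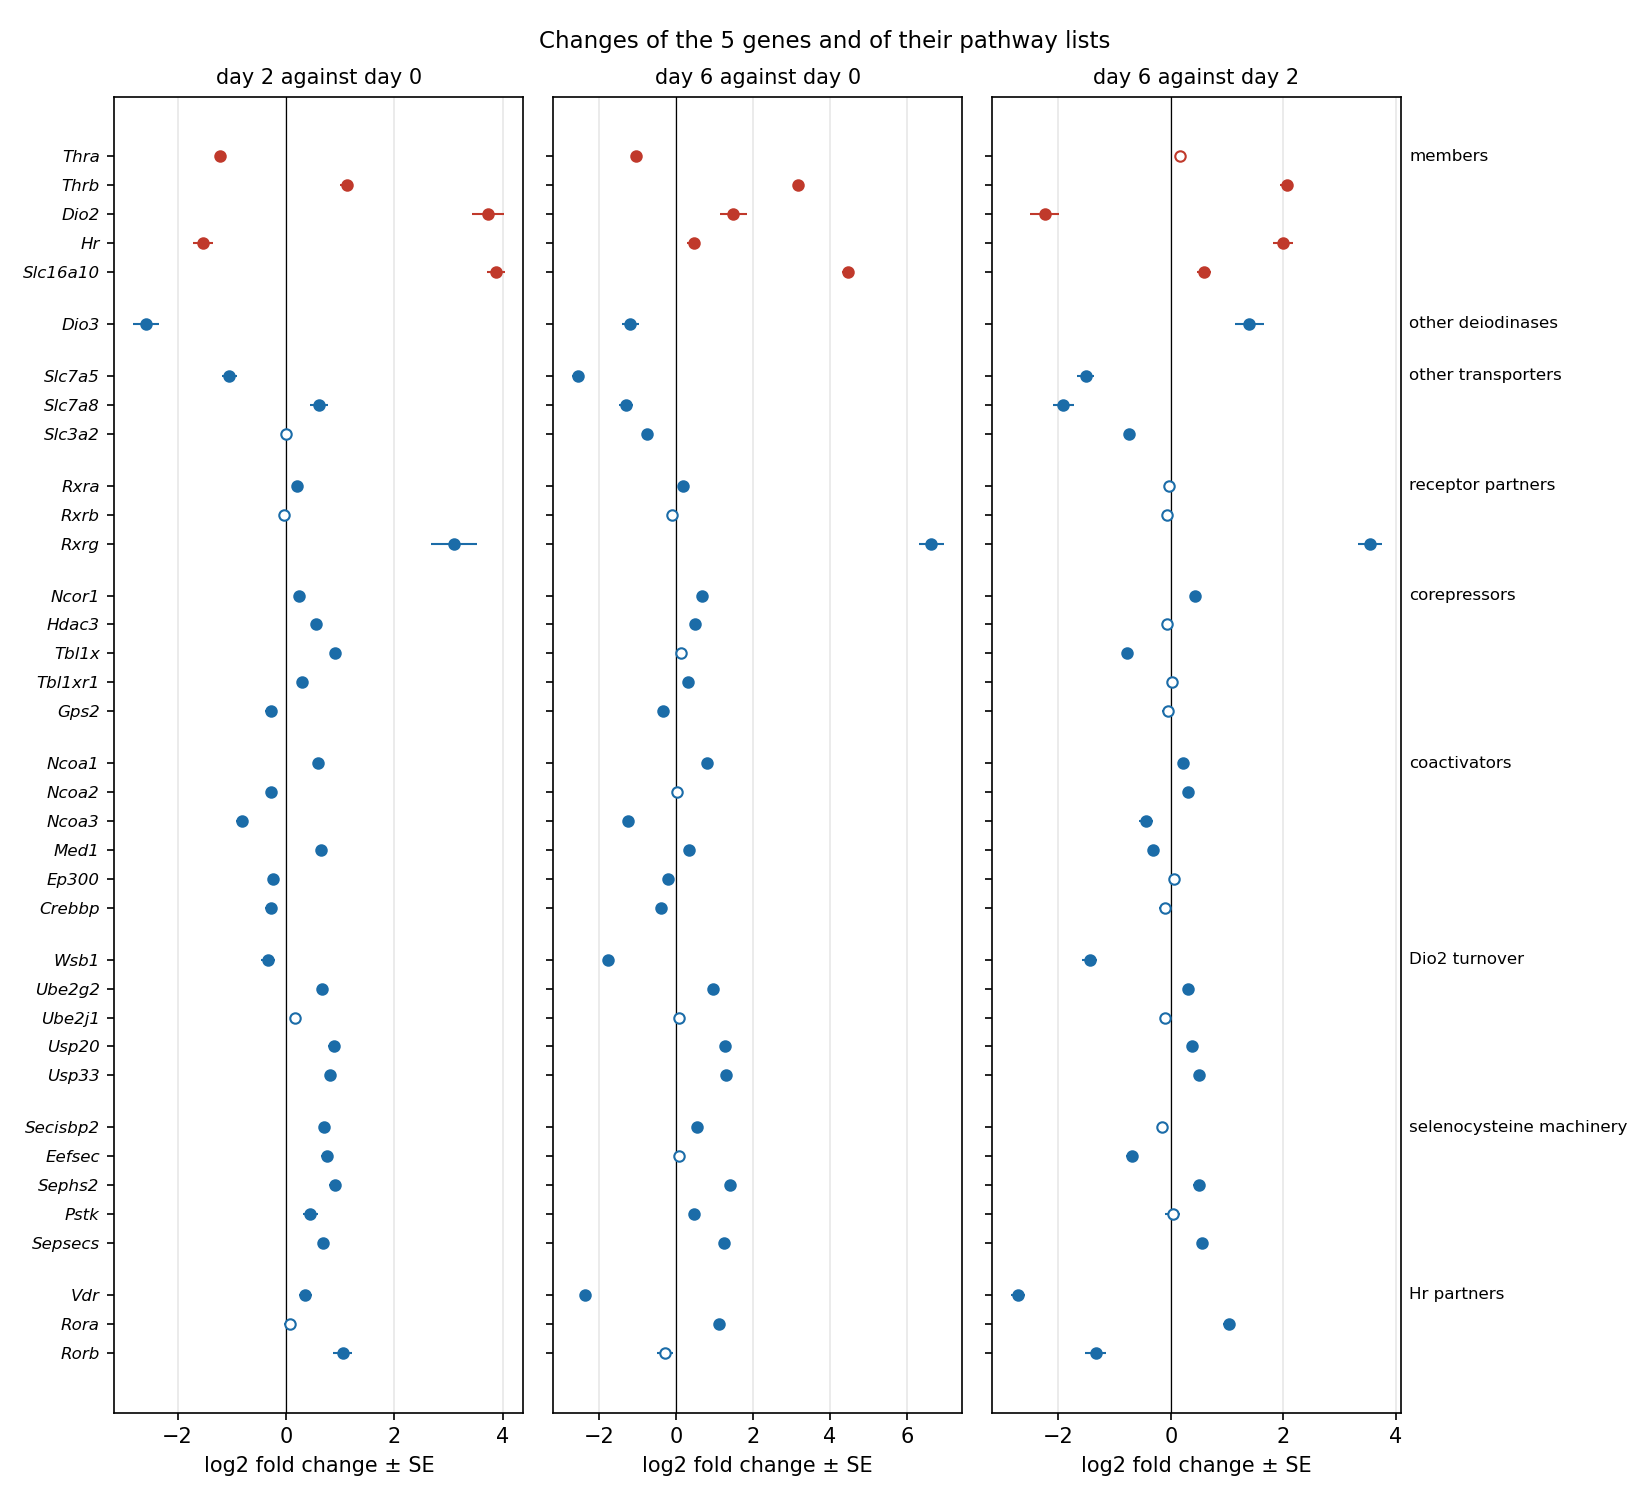
Log2 fold change (horizontal axes, bars are SE) in the 3 comparisons for the 5 genes (red) and for tested genes of 8 pathway lists (blue), with open circles where the adjusted p was 0.05 or above. The cyclic AMP genes, the hormone targets and genes not reported here are left out of the plot. Slc16a10 and Dio2 lie far right at day 2 against day 0 and Dio3 far left, while Rxrg leads at day 6 against day 0.

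For each of the 5, the 3 genes with the most similar course were found by the root mean square distance of centred log2 CPM over the 6 libraries, among tested genes of at least 1 CPM on average. Thra was nearest to Rhoc (0.0521), Syn1 (0.0582) and Trip6 (0.0586). Rhoc, a small GTPase, went from 221 CPM at day 0 to 95.5 and 112. Thrb was nearest to Ogdh (0.0941), Tdrp (0.107) and Uqcrc2 (0.114). Ogdh and Uqcrc2 encode parts of the citric acid cycle and of respiratory complex III, and Ogdh went from 118 CPM to 255 and 981. Hr was nearest to Rras (0.108), Smpdl3a (0.115) and Rdm1 (0.118), and Slc16a10 to Gnai1 (0.129), Pdzd2 (0.203) and Rgs2 (0.2097). Gnai1 and Rgs2 encode an inhibitory G protein subunit and a regulator of G protein signalling. Dio2 was nearest to Wnk4 (0.305), Mt2 (0.325) and C7 (0.384), at larger distances than for the other 4 genes. Mt2, a metallothionein that glucocorticoids are known to raise, went from 74.5 CPM at day 0 to 1150 and 263. With 6 libraries in 3 days, such a distance says only that the day means have a like pattern.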

How the data were processed

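RNA-seq read counts from 6 libraries were analysed, 2 for each of days 0, 2 and 6. The submitters' processing notes name TopHat2 2.0.13, HTSeq 0.9.1 and the builds mm10 and GRCm38. Although RPKM stands in the column names, the deposited values are raw read counts: whole numbers that end in the 5 summary lines HTSeq writes, which stayed out of all totals. The authors' annotation, counting mode and strand setting were not stated in these sources.

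Genes were tested with edgeR 4.0.16 in R 4.3.3 (quasi-likelihood F test, TMM scaling, filterByExpr, a mean per day, 3 residual degrees of freedom, Benjamini-Hochberg adjustment over 14459 tested genes, 31349 untested). SEs were taken from the log2 change and its F value. Levels are CPM with TMM factors, or CPM per kb of GENCODE M21 exon union. A count of 0 was given a floor of 3 counts per library. Reads carry no molecular identifiers and so may be copies of one another, and intervals and floors cover counting error only.

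Same-numbered libraries deviated together from their day means (Pearson's r across genes 0.109, 0.112 and 0.213 for days 0 and 2, 0 and 6, and 2 and 6, each over the limit of 0.1), so the numbers meet the rule for pairs. The reported values and p-values nevertheless come from the fit without a block, and the fit with it is an alternative. No label says what the numbers mark.

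Alternatives were DESeq2 1.42.0 size factors and its Wald test, library totals alone, no filter on low counts, leaving out each library, and a block for the replicate number. The fit was tested on simulated counts with trended dispersions. An earlier simulation with gene-wise dispersions had given more false calls than the 0.05 threshold allows, so calls near the threshold deserve caution.

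The 5 genes, the lists and the tests were chosen with earlier results of these data known. Named genes were all tested genes of the deiodinase, transporter, receptor partner and Hr partner lists, up to 4 called genes of each other list by absolute log2 change at day 6, genes overlapping a member, and the 3 nearest genes. Some genes of these lists are not reported here by name. Klf9, Ucp1, Bcl3, Cpt1a, Atp2a2, Adcy3, Creb1, Ncoa2, Ep300 and Tbl1xr1 fall outside that rule and were chosen after their values were seen. Pearson's r over the 6 libraries, meant to go with the nearest genes, is not given because the libraries fall into 3 day clusters.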

Additional observations from a re-analysis of the deposited data

How the results depend on the processing

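The number of genes called stayed within 1.5 times the reported one in all 11 alternatives. For day 2 against day 0 it was 9704 and ranged from 8140 to 10423 when 1 library was left out. For day 6 against day 0 it was 10253 (8888 to 10295), and for day 6 against day 2 it was 9501 (8115 to 9489). With the replicate block, 9847, 10356 and 9669 genes were called, and 5, 5 and 4 of the 5 genes. Of 170 values for other named genes the block ended 1 call, that of Rxra at day 6 against day 0 (0.17, adjusted p = 0.0589).

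Leaving out 1 library gave 5 called genes of the 5 at day 2 against day 0, 4 to 5 at day 6 against day 0 and 4 to 5 at day 6 against day 2. DESeq2 called 5, 4 and 4, and library totals alone 5, 4 and 3. Scaling by library totals moved the median gene by 0.11, -0.25 and -0.36 on the log2 scale in the 3 comparisons. In that setting Thra at day 6 against day 2 was -0.19, Hr at day 6 against day 0 was 0.21 and Slc16a10 at day 6 against day 2 was 0.23, and none of the 3 passed. A change of scaling moves every gene by about the median shift, so the sizes of these 3 values depend on the scaling used. Hr at day 6 against day 0 was 0.43 with DESeq2 and ranged from 0.26 to 0.64 with 1 library left out. Thra at day 6 against day 2 ranged from 0.031 to 0.27. Dio2 ranged from 0.88 to 1.90 at day 6 against day 0 and from -2.86 to -1.84 at day 6 against day 2. Library totals also reversed Rxra at day 6 against day 0 (-0.074) and, at day 6 against day 2, Ncoa1 (-0.14), Ncoa2 (-0.046), Ube2g2 (-0.056), Klf9 (-0.057), Nr1d1 (-0.10), Rhoc (-0.13) and Trip6 (-0.12). Values of genes other than the 5 were kept here only where they passed the reported test, a limit set after a first table showed many sign changes of values near 0. Of 1866 such values over the alternatives, 1737 kept direction and call and 121 lost the call. Low counts limit Dio2 at days 0 and 6, Rxrg at day 0, and Ucp1.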
